A study of Mus musculus with 20 samples.

Results

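Genes of fatty acid uptake, binding, activation and storage were followed through microglia and astrocytes of mice after traumatic brain injury. They are Lpl, Cd36, Fabp3, Fabp5, Fabp7, Plin2, Acsl1, Acsl6, Ch25h and Pnpla2, taken by symbol, and all 10 were found among the 39017 genes of the count table. Adult male C57BL/6J mice (C57BL/6 in the labels), aged 3 to 4 months, underwent craniectomy followed by a lateral fluid percussion injury (FPI), in which a pulse of fluid strikes the exposed dura, or by the same surgery without the pulse (sham). At day 7 the left forebrain, on the injured side, was dissociated. Microglia were sorted as CD11b-positive cells with intermediate CD45, and astrocytes with an antibody to ACSA-2. Total RNA was sequenced from 5 sham and 5 FPI libraries of each cell type (Sham MG, FPI MG, Sham Astro and FPI Astro), 20 in all, each from the cells of 1 animal.

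Fatty acids reach a cell from lipoproteins, from free fatty acid and from membranes it has engulfed. Lipoprotein lipase cuts triglyceride at the cell surface, CD36 takes up fatty acid and oxidized lipid, and small cytosolic binding proteins of the Fabp family carry the fatty acid inside. Acyl-CoA synthetases such as Acsl1 and Acsl6 trap it as acyl-CoA, perilipin 2 (Plin2) coats the droplets in which surplus is stored, and adipose triglyceride lipase (Pnpla2) opens those stores again. Cholesterol 25-hydroxylase (Ch25h) makes an oxysterol that is known from activated macrophages. Microglia that clear myelin are known to express Lpl and Fabp5, and Fabp7 is a classical marker of radial glia and astrocytes.

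Between 5623349 and 13110857 reads per library were counted on genes. Levels are given as CPM, counts scaled by library size, on a single scale over the 20 libraries, and fold changes come from edgeR's quasi-likelihood test, fitted on all genes with Benjamini-Hochberg adjustment. Here called means that the adjusted p was below 0.1 and that the log2 fold change exceeded 0.6 in either direction. The summed CPM of 10 microglia markers was 18457 to 28515 in microglia libraries and 105 to 261 in astrocyte libraries, and the sum of 10 astrocyte markers was 10699 to 32954 in astrocyte libraries and 248 to 620 in microglia libraries, with every marker of both lists detected in every group. The sum of 8 oligodendrocyte markers was 1678 to 18050 CPM in Sham Astro and 3262 to 11359 CPM in FPI Astro. In Sham Astro 4 it was above the astrocyte marker sum, at 18050 against 10699 CPM, so the astrocyte libraries also held RNA of other cells. The library name of FPI Astro 5 carries a microglia suffix, while its microglia marker sum lies within the range of the other astrocyte libraries. That library also shares an animal number with FPI Astro 2, and 3 animals were the source of both a microglia and an astrocyte library, so these libraries are not all independent. Because RNA was pooled over the sorted cells of a mouse, more cells carrying a transcript and more transcript per cell cannot be told apart.

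The 3 fatty acid binding proteins are relatives whose reads must be told apart, so the beginnings of their coding sequences are shown. Over the whole coding sequence, Fabp3 and Fabp7 were 66.7% identical, Fabp3 and Fabp5 55.4%, and Fabp5 and Fabp7 55.1%. The longest run of identical bases between any pair was 20, in Fabp3 and Fabp7. The first 120 coding bases follow, 5′ to 3′, with capitals at positions where all 3 genes carry the same base in the alignment, which spans coding sequences of 399, 405 and 396 bases for Fabp3, Fabp5 and Fabp7.
Fabp3: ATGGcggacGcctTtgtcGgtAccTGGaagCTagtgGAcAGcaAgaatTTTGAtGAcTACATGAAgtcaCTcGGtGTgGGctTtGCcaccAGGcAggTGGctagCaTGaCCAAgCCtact
Fabp5: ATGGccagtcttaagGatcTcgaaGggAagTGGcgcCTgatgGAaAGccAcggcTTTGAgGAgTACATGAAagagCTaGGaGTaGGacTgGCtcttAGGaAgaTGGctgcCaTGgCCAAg
Fabp7: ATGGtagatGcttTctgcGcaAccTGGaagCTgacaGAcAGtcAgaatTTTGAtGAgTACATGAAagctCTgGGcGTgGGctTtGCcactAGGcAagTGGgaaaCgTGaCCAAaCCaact
On GRCm38, Fabp3 lies at chr4:130308595-130315463, Fabp5 at chr3:10012548-10016607 and Fabp7 at chr10:57784881-57788450, all on the plus strand. The identical bases fall in short stretches, and in the aligned coding sequences no run shared by a pair was longer than those 20 bases. Runs in the untranslated parts were not measured. Near copies elsewhere in the annotation took few reads. The search took matches of 100 or more bases at 95% identity or more. The pseudogenes Gm6166 and Gm14328 were 98.3% and 97.3% identical to Fabp5 over their longest matches, of 409 and 408 bases. They held 44 and 22 counts over all libraries against 15680 for Fabp5, and Fabp3-ps1 held 2 against 204 for Fabp3.

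In microglia, FPI raised Lpl, Fabp5 and Plin2, a lipase, a fatty acid carrier and a droplet coat protein, and no member was called lower. These 3 were called of the 9 members that passed the filter on low counts, while over all genes 285 of 12143 tested were called, 2.35%. Because the members were listed with results of these data known, their share is given beside that background and nothing is read from it. The median log2 fold change of the 9 tested members was 1.05, and over all tested genes it was -0.0094. Fabp3 was below the filter and is described with the other binding proteins.

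**Figure D1:**
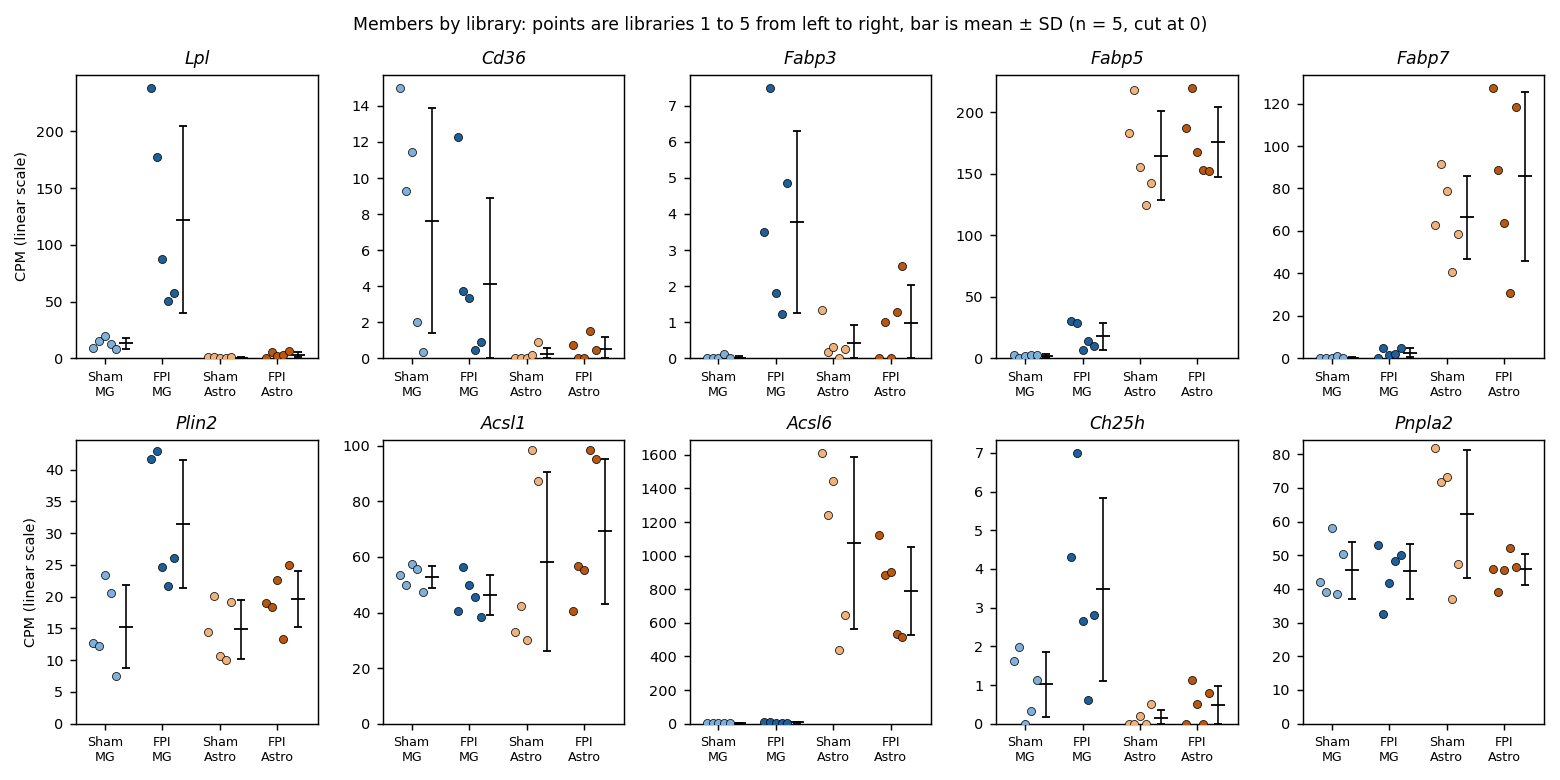
CPM of the 10 members (linear axes, one panel each) in Sham MG, FPI MG, Sham Astro and FPI Astro, with 1 point per library and the mean ± SD of 5 beside them. Lpl stood at 50.2 to 238 CPM in FPI MG against 8.52 to 19.8 in Sham MG, and Fabp5, Fabp7 and Acsl6 stood far higher in both astrocyte groups than in either microglia group.

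Lpl, on chr8:68880491-68907448, was the member with the smallest p in injured microglia. In Sham MG 1 to 5 it stood at 9.37, 15.2, 19.8, 12.9 and 8.52 CPM, and in FPI MG 1 to 5 at 238, 177, 87.6, 50.2 and 57.3 CPM. The lowest injured library was above the highest sham library, by more than the whole range of the sham group. Group means were 13.2 ± 4.59 and 122 ± 82.2 CPM (SD, n = 5 each). For Lpl the log2 fold change was 3.22 ± 0.37 (SE, adjusted p = 5.64e-05), rank 9 of 12143 by p. Lpl was called with each of the 10 libraries left out in turn, at log2 fold changes from 2.80 to 3.41.

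Microglia library names fall into 2 series of animal numbers, replicates 1 to 3 and replicates 4 and 5 of each condition. The Lpl levels of FPI MG 1, 2 and 3 were all above those of FPI MG 4 and 5, while sham levels overlapped between the series. Within the first series the log2 fold change was 3.51 ± 0.31 (edgeR, adjusted p = 1.72e-06), and within the second it was 2.35 ± 0.39 (adjusted p = 0.0099). The rise was thus called in both series, and the difference between them, -1.16 on the log2 scale, had an unadjusted p of 0.025 and an adjusted p of 0.40.

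Cd36, on chr5:17781690-17888801, did not follow Lpl. It stood at 15.0, 9.30, 11.4, 2.04 and 0.379 CPM in Sham MG 1 to 5 and at 12.3, 3.74, 3.37, 0.462 and 0.897 CPM in FPI MG 1 to 5. Sham and injured libraries overlapped over almost their whole range. Its log2 fold change was -0.86 ± 0.75 (edgeR, adjusted p = 0.77), and it was -1.86 without FPI MG 1 (adjusted p = 0.31) and -0.46 without Sham MG 1 (adjusted p = 0.94). Cd36 was lower in replicates 4 and 5 than in replicates 1 to 3 under both conditions. Its level in the second series against the first was -3.20 ± 0.58 on the log2 scale (edgeR, adjusted p = 0.0058). For Lpl the same contrast was -1.03 ± 0.24 (edgeR, adjusted p = 0.056), and 91 of 12140 genes were called for it. The summed level of 9 markers of monocytes and border macrophages moved the same way as Cd36. It was 148 to 461 CPM in replicates 1 to 3 and 21.2 to 66.99 CPM in replicates 4 and 5. Its most abundant gene, Mrc1, the mannose receptor of border macrophages, ran from 84.4 to 270 CPM in the first series and from 11.2 to 45.6 CPM in the second. Cd163 and F13a1 were lower in the second series under both conditions too. In FPI MG, Ccr2 (2.92 to 9.24 and 0.154 to 5.25 CPM) and Plac8 (0 to 2.37 and 0.154 to 2.31 CPM) overlapped between the series. In each microglia group 8 of the 9 markers had a read and Ly6c2 was at 0, and the part of such cells in the Cd36 level was not tested.

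**Figure D2:**
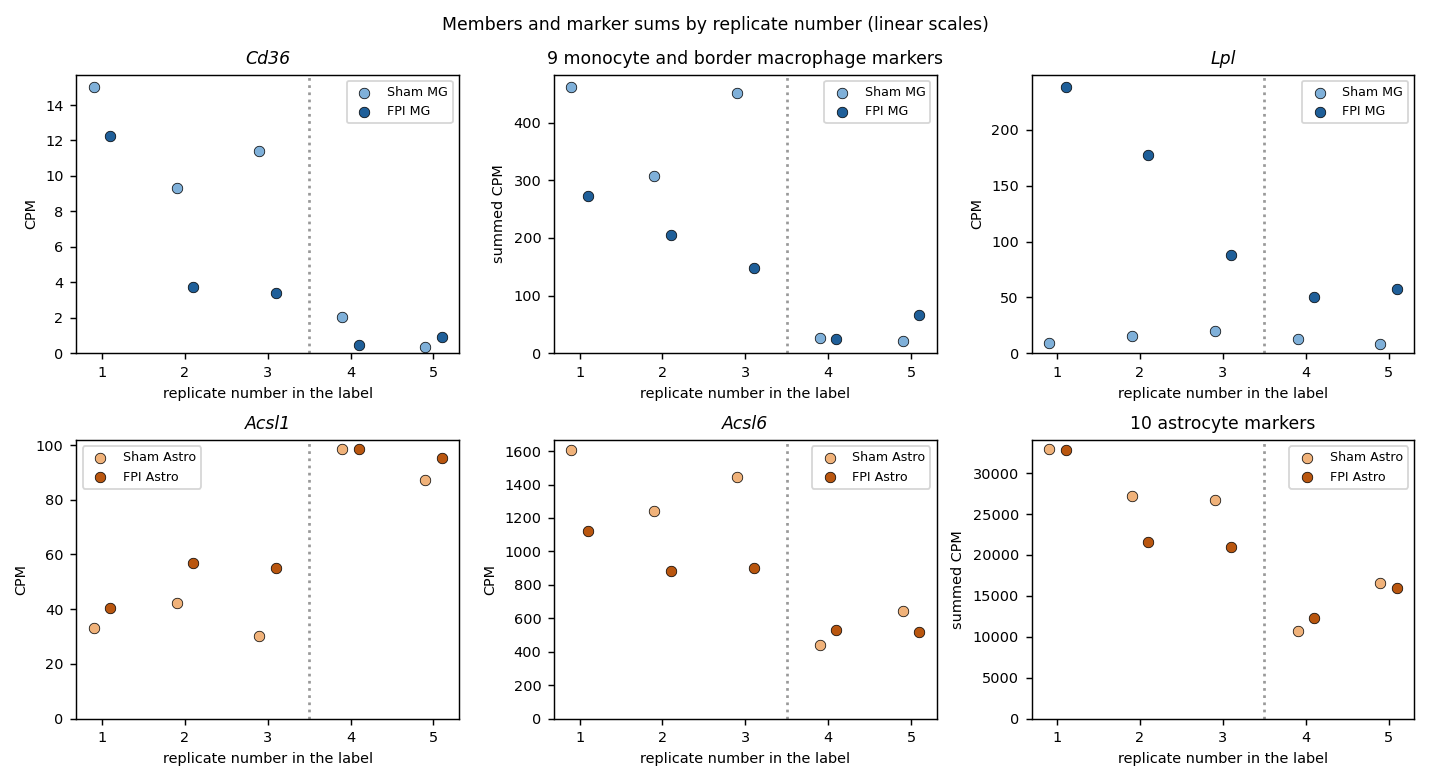
CPM of Cd36 and Lpl in microglia and of Acsl1 and Acsl6 in astrocytes, with 2 marker sums, against the replicate number in the label (linear axes, 1 point per library, dotted line between replicates 3 and 4). Cd36 and the monocyte and border macrophage sum are both low in microglia replicates 4 and 5, and in astrocyte replicates 4 and 5 Acsl1 is high where Acsl6 and the astrocyte marker sum are low.

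Among the binding proteins, Fabp5, the epidermal type that is also known from activated macrophages, rose in injured microglia. It stood at 2.87, 0.512, 2.13, 2.95 and 2.46 CPM in Sham MG 1 to 5, and at 30.6, 28.8, 6.99, 13.7 and 10.1 CPM in FPI MG 1 to 5. Every injured library was above every sham library. Means were 2.19 ± 0.992 and 18.0 ± 10.9 CPM (SD, n = 5 each), and the log2 fold change was 3.09 ± 0.48 (edgeR, adjusted p = 0.00091). It was called with each library left out in turn, at 2.79 to 3.30. The change was 3.63 ± 0.60 within replicates 1 to 3 (adjusted p = 0.0012) and 2.16 ± 0.70 within replicates 4 and 5 (adjusted p = 0.27), and the difference between the series had an unadjusted p of 0.12.

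Astrocytes held far more Fabp5 than microglia, so the astrocyte RNA in the microglia libraries bears on its low sham level. The astrocyte marker sum of Sham MG libraries was 1.09 to 1.63% of the Sham Astro mean, and that share of the Sham Astro level of Fabp5 averages 2.26 CPM, against 2.19 CPM measured. In FPI MG libraries the share was 1.43 to 2.99% and the same product averages 3.71 CPM, with 5.26 CPM as its highest value, against 6.99 CPM in the lowest injured library. Taken library by library, the sham level was above its own product in 3 of 5 libraries and below it in Sham MG 2 and 3, and the injured level was above it in 5 of 5. The product depends on the markers taken. Slc1a3, the highest of the 10 markers in Sham MG, stood at 154 CPM there and at 3763 CPM in Sham Astro. Gfap stood at 6.29 and 219 CPM, Gja1 at 12.1 and 2168 CPM, and Aqp4 at 7.72 and 937 CPM. In FPI MG and FPI Astro, Slc1a3 stood at 155 and 3030 CPM and Gfap at 42.05 and 849 CPM. Gja1 stood there at 18.2 and 1706 CPM, and Aqp4 at 16.1 and 975 CPM. In both conditions Slc1a3 and Gfap thus give a larger share than the sum, and Gja1 and Aqp4 a smaller one. By Slc1a3 or Gfap alone the mean product in FPI MG lies above the 6.99 CPM of the lowest injured library. The part of astrocyte RNA in the Fabp5 level was not tested. For Acsl6 and Fabp7 in Sham MG the product was 14.8 and 0.914 CPM, above the 5.10 and 0.250 CPM measured, so for these genes the product exceeded the level itself.

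Fabp3, the heart type, was nearly absent from sham microglia and present in each injured library. Sham MG held 1 read in all, in replicate 4 (0.114 CPM), and the other 4 libraries were at 0. FPI MG 1 to 5 stood at 3.50, 7.49, 1.81, 1.23 and 4.87 CPM, from 30, 60, 15, 8 and 38 reads. No injured library reached down to the sham level. The gene did not pass the filter on low counts, so the difference in mean CPM, 3.76, was tested alone by an exact permutation test (two-sided, p = 0.00794), which is the smallest p that 5 against 5 libraries can give. The test was made for 4 pairs of member and cell type below the filter. The ratio of reads scaled to library size was 172 (151 reads against 1, exact 95% interval 30.4 to 6846), an interval that covers counting error only. With no filter on low counts the edgeR fit over all genes gave an adjusted p of 4.96e-05, and the fit of all 20 libraries gave 0.030. Fabp3 overlaps Zcchc17 on the opposite strand, which held 3384 counts over all libraries, and how strand was used in the counting is not given in the sources used here.

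Fabp7, the brain type, was not called in microglia. It was at 0 in Sham MG 1, 2, 3 and 5 and at 1.25 CPM in Sham MG 4, and stood at 0, 4.74, 1.81, 2.16 and 4.74 CPM in FPI MG 1 to 5. Injured and sham libraries overlapped, since FPI MG 1 had no read. For Fabp7 the log2 fold change was 3.36 ± 1.20 (edgeR, adjusted p = 0.21), and without Sham MG 4 it was 7.50 (adjusted p = 0.036), a fitted value against sham libraries all at 0 that depends on the prior count. The product of the astrocyte marker share and the FPI Astro level of Fabp7 was 1.23 to 2.56 CPM in these libraries, and the measured level was above it in 4 of 5. As for Fabp5, this product depends on the markers taken. The astrocyte marker sum was 594, 620, 374, 305 and 297 CPM in FPI MG 1 to 5, and the part of astrocyte RNA in the Fabp7 level was not tested.

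**Figure D3:**
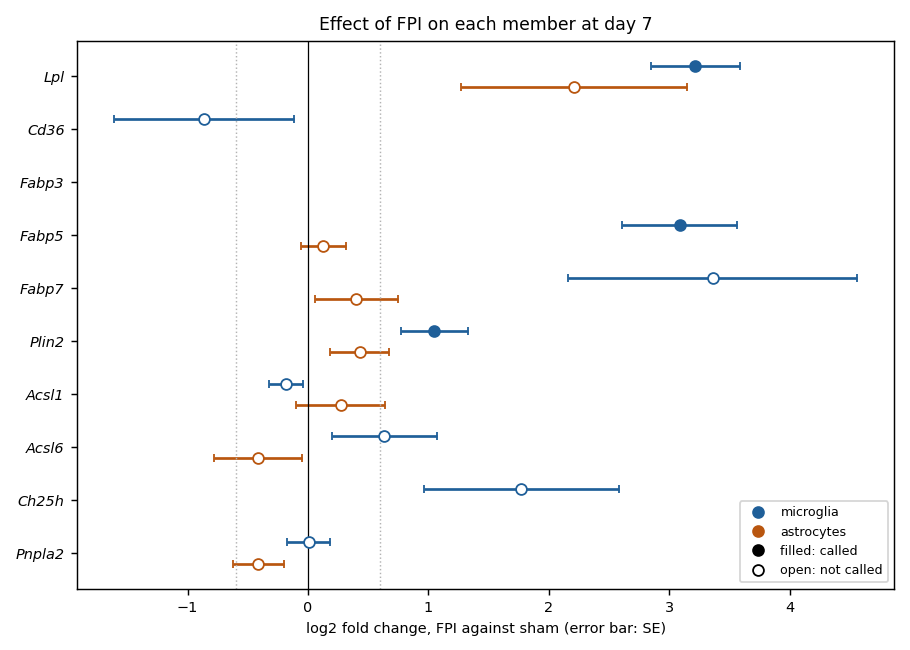
Log2 fold change of each tested member in FPI against sham, with its SE, in microglia and astrocytes (filled symbols are called, dotted lines mark the minimum fold change of 0.6). Lpl, Fabp5 and Plin2 in microglia are the only called members, and Fabp3 has no point because it was below the filter on low counts in both cell types.

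Among the genes of storage, Plin2 rose in injured microglia and Pnpla2 was not called. Plin2 stood at 12.8, 12.2, 23.4, 20.5 and 7.58 CPM in Sham MG 1 to 5 and at 41.7, 42.9, 24.7, 21.7 and 26.1 CPM in FPI MG 1 to 5. Only Sham MG 3, at 23.4 CPM, reached above the lowest injured library. Means were 15.3 ± 6.50 and 31.4 ± 10.1 CPM (SD, n = 5 each), with a log2 fold change of 1.05 ± 0.28 (edgeR, adjusted p = 0.060). The call is close to its threshold. It was lost with Sham MG 1, 2 or 5 or FPI MG 1 or 2 left out (adjusted p up to 0.22) and in the fit of all 20 libraries (adjusted p = 0.15). Pnpla2, on chr7:141455198-141460743, had means of 45.6 ± 8.50 CPM in Sham MG and 45.2 ± 8.11 CPM in FPI MG, and a log2 difference of 0.0050 ± 0.18.

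The genome around the start of Plin2 is shown because it is the only called member with a promoter window in the RefSeq table used here, which held windows for 8 of the 10 members. Plin2 lies at chr4:86648386-86670060 on the minus strand of GRCm38, and the bases below are chr4:86670058-86670309 of GRCm38.p6, written 5′ to 3′ on the gene's strand up to the end of the last motif.
Plin2: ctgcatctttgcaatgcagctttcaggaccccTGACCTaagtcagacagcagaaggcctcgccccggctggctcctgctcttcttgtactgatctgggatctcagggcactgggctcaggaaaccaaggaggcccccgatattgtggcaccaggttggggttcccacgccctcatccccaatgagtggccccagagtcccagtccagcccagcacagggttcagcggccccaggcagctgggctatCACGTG
Capitals mark TGACCT, which is AGGTCA on the other strand and begins 218 bases before the start, and CACGTG, which begins 4 bases before it and reads the same on both strands. AGGTCA is the core element of many nuclear receptors, among them the PPAR and LXR partners of RXR that are known to act on lipid genes, and CACGTG is the E-box read by factors such as TFE3 and USF. Both strands were searched for AGGTCA, for 2 AGGTCA 1 base apart, for 2 GAAA 2 bases apart and for CACGTG, and the motifs do not overlap each other in this window. Each window searched ran from 250 bases before the start to 50 bases after it, and the bases above are the first part of the Plin2 window. Of 32851 such windows, 16.3% held AGGTCA and 7.2% held CACGTG. The pair of AGGTCA was in 0.04% and the pair of GAAA in 3.4%, and neither was found in the Plin2 window.

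The activating enzymes were not called in microglia. Acsl1, on chr8:46471037-46536051, had 52.8 ± 4.09 CPM in Sham MG and 46.2 ± 7.18 CPM in FPI MG, a log2 fold change of -0.18 ± 0.14 (edgeR, adjusted p = 0.74). Acsl6, on chr11:54303798-54364756, is the long-chain form typical of brain, and stood at 5.10 ± 1.78 CPM in Sham MG and 7.85 ± 4.42 CPM in FPI MG (log2 fold change 0.63 ± 0.43, adjusted p = 0.69). The groups overlapped for both genes.

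Ch25h, on chr19:34473778-34475164, was low in microglia and was not called. It stood at 1.62, 1.98, 0, 0.341 and 1.14 CPM in Sham MG 1 to 5 and at 4.32, 6.99, 2.65, 0.616 and 2.82 CPM in FPI MG 1 to 5. Of the injured libraries 4 were above every sham library, and FPI MG 4 was below 3 of them. The log2 fold change was 1.77 ± 0.81 (edgeR, unadjusted p = 0.042, adjusted p = 0.41). Every FPI library was above every sham library for Lpl, Fabp5 and Fabp3, and among the 12143 tested genes, of which Fabp3 is not one, this held for 2.17%. Ch25h overlaps Gm26902 on the opposite strand, which held 89 counts over all libraries against 214 for Ch25h.

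In astrocytes no member was called between FPI and sham, of 7 tested. Over all genes 1 of 13741 was called, 0.00728%, and 319 genes passed an unadjusted p of 0.05, among them Lpl as the sole member. DESeq2, which called 39 genes in all, also called no member. Lpl stood at 1.06, 1.31, 0, 0.103 and 1.14 CPM in Sham Astro 1 to 5 and at 0.206, 5.38, 1.99, 2.82 and 6.23 CPM in FPI Astro 1 to 5. Of the injured libraries 4 were above every sham library, and FPI Astro 1 lay within the sham range. The highest of them, FPI Astro 2 and 5, share an animal number. The log2 fold change was 2.21 ± 0.94 (edgeR, unadjusted p = 0.036, adjusted p = 1.00). With FPI Astro 2 and 5 summed into a single library it was 1.90 ± 1.00 (edgeR, unadjusted p = 0.084). The microglia marker sum of FPI Astro libraries was 0.541 to 1.14% of the FPI MG mean, and that share of the FPI MG level of Lpl averages 1.01 CPM, against 3.33 CPM measured. In Sham Astro the product averages 0.0684 CPM against 0.722 CPM measured. The microglia marker that stood highest in both astrocyte groups was Sall1, at 94.9 CPM in FPI Astro against 1060 CPM in FPI MG. Csf1r stood at 18.0 against 6746 CPM, so this product too depends on the markers taken. The part of microglial RNA in the Lpl level was not tested.

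The abundant binding proteins of astrocytes were not called after injury. Fabp5 stood at 183, 218, 156, 125 and 143 CPM in Sham Astro 1 to 5 and at 187, 220, 168, 153 and 152 CPM in FPI Astro 1 to 5. The groups overlapped, and the log2 fold change was 0.13 ± 0.19 (edgeR, adjusted p = 1.00). Fabp7 stood at 62.7, 91.7, 78.8, 40.7 and 58.4 CPM in Sham Astro 1 to 5 and at 127, 88.8, 63.5, 30.6 and 118 CPM in FPI Astro 1 to 5, where the highest and the lowest library are both injured. Its log2 fold change was 0.40 ± 0.35. Fabp3 was below the filter, with 17 reads in Sham Astro and 35 in FPI Astro (exact permutation test, two-sided, p = 0.405). Cd36, with 9 and 23 reads, and Ch25h, with 6 and 18 reads, were also below it (exact permutation test, two-sided, p = 0.405 and 0.286). The ratios of reads scaled to library size were 2.35 for Fabp3 (exact 95% interval 1.28 to 4.48), 2.92 for Cd36 (1.30 to 7.17) and 3.43 for Ch25h (1.30 to 10.5), and these intervals, for counting error only, lie above 1. For these 3 genes the difference between groups was within the spread between libraries.

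Of the astrocyte genes of activation and storage, Acsl6 and Acsl1 stood apart by replicate number, and their sham and injured libraries overlapped. Acsl6 stood at 1609, 1242, 1446, 439 and 646 CPM in Sham Astro 1 to 5 and at 1122, 885, 903, 533 and 516 CPM in FPI Astro 1 to 5. Under both conditions replicates 4 and 5 were below replicates 1 to 3. Acsl1 ran the other way, at 32.9, 42.2, 30.2, 98.5 and 87.2 CPM in Sham Astro 1 to 5 and 40.4, 56.8, 55.2, 98.5 and 95.2 CPM in FPI Astro 1 to 5. Replicates 4 and 5 were set apart after the data had been seen, so these levels carry no test. The astrocyte marker sum was 20928 to 32954 CPM in replicates 1 to 3 and 10699 to 16584 CPM in replicates 4 and 5, the sum of 8 oligodendrocyte precursor markers was 324 to 704 and 901 to 1500 CPM, and the sum of 6 mural cell markers was 270 to 2855 and 3026 to 7845 CPM. Of the precursor markers, Cspg4 (108 to 241 and 324 to 567 CPM in sham, 26.6 to 278 and 508 to 796 CPM in FPI) and Pdgfra were apart within each condition. Olig1, Olig2 and Sox10 overlapped between the sets under both conditions. The sum of 8 oligodendrocyte markers was 1678 to 7785 CPM in Sham Astro 1 to 3 and 8026 to 18050 CPM in Sham Astro 4 and 5. In FPI Astro it was 6223 to 10043 and 3262 to 11359 CPM, with overlap. Every marker of these lists had a read in both astrocyte groups, and the part of other cells in the levels of Acsl1 and Acsl6 was not tested.

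The log2 fold change with injury was -0.41 ± 0.37 for Acsl6 and 0.27 ± 0.37 for Acsl1 in astrocytes (edgeR, adjusted p = 1.00 each). With a separate effect in each set of replicates, it was -0.53 ± 0.23 for Acsl6 and 0.57 ± 0.19 for Acsl1 in replicates 1 to 3, and -0.035 ± 0.28 and 0.077 ± 0.23 in replicates 4 and 5 (adjusted p from 0.79 to 1.00). Plin2 had 14.9 ± 4.65 CPM in Sham Astro and 19.7 ± 4.40 CPM in FPI Astro, a log2 fold change of 0.43 ± 0.25. Pnpla2 stood at 81.8, 71.8, 73.1, 37.1 and 47.3 CPM in Sham Astro 1 to 5 and at 45.9, 39.1, 45.6, 52.1 and 46.7 CPM in FPI Astro 1 to 5. Of the injured libraries 4 lay within the range of Sham Astro 4 and 5, and FPI Astro 4, at 52.1 CPM, lay between that range and the other sham libraries. The log2 fold change was -0.41 ± 0.21 over all 10 libraries, -0.76 ± 0.18 in replicates 1 to 3 and 0.24 ± 0.22 in replicates 4 and 5, none of them called.

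Whether injury acted differently in the cell types was tested for each member as the log2 fold change in microglia minus that in astrocytes. Over all genes 30 of 15077 were called at an adjusted p below 0.1, 0.199%, and of the members Fabp5 was called. Its difference was 3.00 ± 0.53 (edgeR, adjusted p = 0.021), from 3.09 in microglia and 0.095 in astrocytes in the same fit of all 20 libraries. The call held with each of the 20 libraries left out in turn. It was lost (difference 2.29, adjusted p = 0.16) without the microglia libraries of the 3 animals that gave both cell types, which are Sham MG 2, Sham MG 3 and FPI MG 1. For Lpl the difference was 1.05 ± 0.96 (adjusted p = 0.94), so its rise was not shown to differ between the cell types. Fabp3 (5.45 ± 1.71, adjusted p = 0.38) and Plin2 (0.63 ± 0.41, adjusted p = 0.85) were not called either.

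Of the 10 members 7 were called between Sham MG and Sham Astro, where 9175 of 15077 genes were called over the whole table, 60.9%, so the share of called members lies near that background. Lpl, Cd36 and Ch25h were higher in microglia, and Fabp3, Fabp5, Fabp7 and Acsl6 were higher in astrocytes. Acsl6 differed most in p, with a log2 fold change in microglia against astrocytes of -7.71 ± 0.51 (means 5.10 and 1076 CPM, edgeR, adjusted p = 3.40e-11). Fabp5 differed by -6.28 ± 0.44 (adjusted p = 1.08e-10) and Fabp7 by -7.97 ± 0.84 (adjusted p = 4.15e-08), and for these 3 no library of one cell type came near the other. Without Sham MG 4, the one sham microglia library with a read of Fabp7, its fitted value was -12.12, which likewise depends on the prior count. Lpl was 4.19 ± 0.70 higher in microglia on the log2 scale (means 13.2 and 0.722 CPM, adjusted p = 2.35e-05).

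The other calls between the cell types rest on few reads or on part of the libraries. Cd36 differed by 5.12 ± 1.26 (adjusted p = 0.0013), with 3 sham microglia libraries at 9.30 CPM or more and the others at 2.04 and 0.379 CPM. Ch25h (2.78 ± 1.18, adjusted p = 0.046) lost its call without Sham MG 2, and Fabp3 (-3.47 ± 1.39, adjusted p = 0.035) lost its call without Sham Astro 1. In the fit of the 10 sham libraries alone Cd36, Ch25h and Fabp3 were below the filter, and 4 of the 7 members tested were called, Lpl, Fabp5, Fabp7 and Acsl6. Plin2, Acsl1 and Pnpla2 were not called, at log2 differences of 0.045 ± 0.29, -0.14 ± 0.29 and -0.45 ± 0.20. Without Sham Astro 4 and 5 and FPI Astro 3, which come from animals that also gave microglia, Acsl1 was higher in microglia by 0.62 (adjusted p = 0.034) and Pnpla2 lower (log2 difference -0.69, adjusted p = 0.0041). Sham Astro 4 and 5 are also the sham libraries that stood apart by replicate number, so shared animal and replicate set cannot be told apart here.

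Levels were compared between members as mean CPM per kb of transcript, by the longest coding transcript and again by all exons. In Sham MG the first 3 places were held by Pnpla2 (17.4 CPM per kb of coding transcript), Acsl1 (13.5) and Plin2 (8.10) by both lengths, and Fabp3 was last (0.0276). In FPI MG Lpl (29.7 CPM per kb) came first by coding transcript and was behind Pnpla2 by all exons, up from the fourth and the fifth place in Sham MG. By coding transcript Lpl was above Pnpla2 in FPI MG 1 to 3 (21.3 to 57.8 CPM per kb) and below it in FPI MG 4 and 5, where Lpl stood at 12.2 and 13.9 and Pnpla2 at 18.4 and 19.1 CPM per kb. In Sham Astro Acsl6 (185 CPM per kb) led by both lengths. Fabp5 (167) and Fabp7 (75.5) followed, and changed places when all exons were counted. The lower end of the astrocyte order was Lpl, Ch25h and Cd36, with Cd36 last by both lengths in both conditions.

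**Figure D4:**
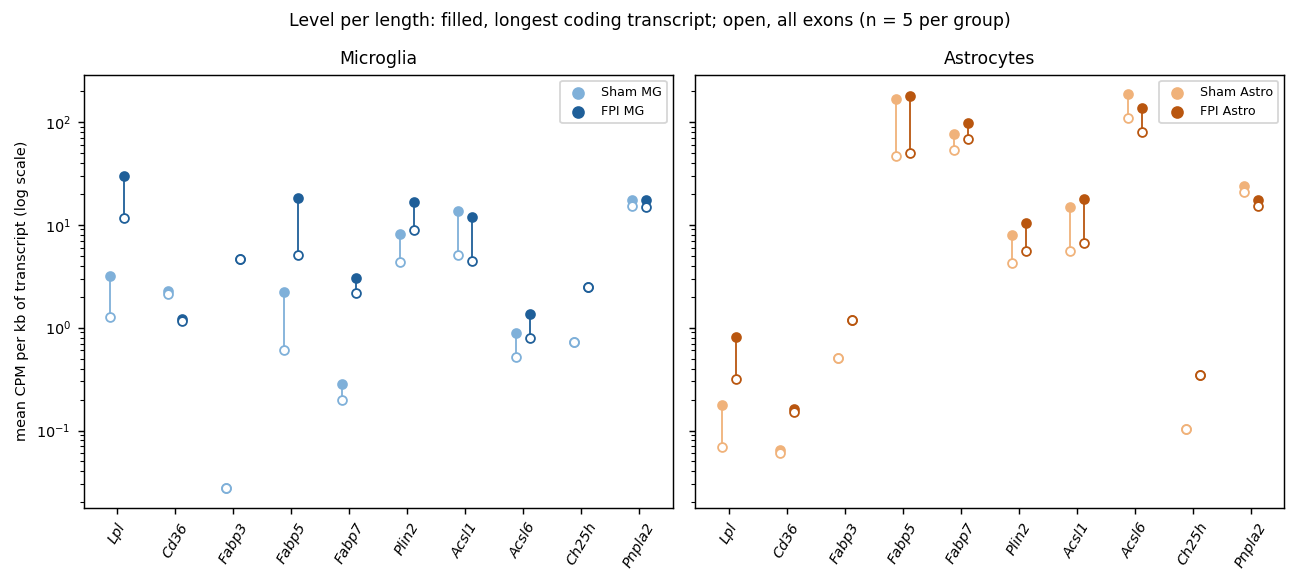
Mean CPM per kb of transcript (log axis, n = 5 per group) of each member in microglia (left) and astrocytes (right), by longest coding transcript (filled) and by all exons (open). Acsl6, Fabp5 and Fabp7 lead in astrocytes, and in FPI MG Lpl, Plin2, Fabp5 and Pnpla2 fill the first 4 places by both lengths.

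The rest of the pathway was read from lists of 147 genes that exclude the members. In microglia 92 of them were tested and none was called by edgeR, with 6 higher and 3 lower at an unadjusted p below 0.05, and DESeq2 called 1, Rxrg. In astrocytes 112 were tested and none was called by edgeR or DESeq2, with 0 higher and 1 lower at an unadjusted p below 0.05. The median log2 fold change of the tested list genes was -0.015 in microglia and -0.092 in astrocytes.

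Of 15 genes that act beside Lpl on lipoproteins, 4 were tested in microglia and 7 in astrocytes, and none was called. None of the transporters was called, of 5 tested of 13 in microglia and 6 in astrocytes, where the leading genes were the fatty acid transport proteins Slc27a1 (log2 fold change 0.24 ± 0.23 in microglia) and Slc27a3 (0.97 ± 0.51 in astrocytes). Of 11 further binding proteins 3 were tested in each cell type. Acbd5, an acyl-CoA binding protein of peroxisomes, led in microglia at 0.49 ± 0.17 (adjusted p = 0.18), and Dbi, the acyl-CoA binding protein, led in astrocytes at 0.17 ± 0.20.

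Of 16 genes of acyl-CoA activation and hydrolysis 14 were tested in microglia and 15 in astrocytes. The thioesterase Acot7 had the smallest p in microglia (log2 fold change 0.83 ± 0.47, adjusted p = 0.57), and Acsl4 in astrocytes (-0.28 ± 0.22). Of 33 genes of triglyceride and droplets 19 were tested in microglia. Mgll, the monoacylglycerol lipase that ends the breakdown begun by Pnpla2, stood at 46.8 to 57.4 CPM in Sham MG and at 31.5 to 42.0 CPM in FPI MG, without overlap, and its log2 fold change of -0.45 ± 0.14 was not called (adjusted p = 0.14, and 0.069 in DESeq2 with the change still under the minimum of 0.6). In astrocytes 26 were tested, led by the droplet gene Fitm2 at -0.43 ± 0.20.

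Genes that burn or build fatty acid were not called either. Of 24 genes of beta-oxidation 22 were tested in microglia, 12 above and 10 below 0, led by the peroxisomal enzyme Ehhadh at -1.07 ± 0.45 (adjusted p = 0.33). In astrocytes 23 were tested, 5 above and 18 below 0, led by Echs1 at -0.30 ± 0.18. Of 15 genes of synthesis and desaturation 10 were tested in microglia, led by Acaca, the acetyl-CoA carboxylase that commits carbon to fatty acid, at 25.7 ± 8.14 CPM in Sham MG and 40.9 ± 11.3 CPM in FPI MG (log2 fold change 0.69 ± 0.24, adjusted p = 0.20). In astrocytes all 15 were tested, 3 above and 12 below 0, led by Acly at -0.33 ± 0.17.

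Beside Ch25h, 4 of 5 oxysterol genes were tested in each cell type, and the sterol 27-hydroxylase Cyp27a1 had the smallest p in both, at -0.12 ± 0.21 in microglia and -0.36 ± 0.48 in astrocytes. Of 15 regulators 11 were tested in microglia. Rxrg, a retinoid X receptor that pairs with PPAR and LXR, stood at 0.125 to 2.02 CPM in Sham MG and at 1.39 to 9.86 CPM in FPI MG. Its groups overlapped, and its log2 fold change of 2.43 ± 0.73 missed the threshold in edgeR (adjusted p = 0.11) and passed it in DESeq2 (adjusted p = 0.017). In astrocytes 13 regulators were tested, led by Srebf2 at -0.34 ± 0.17.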

How the data were processed

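Libraries were made with a stranded total RNA kit for picogram inputs. Per the submitters' processing notes reads were handled with bcl2fastq, HISAT2 2.1.0 and featureCounts on mm10 (GRCm38.p6). The deposited values are whole-number counts of reads per gene made by the authors, without normalization. The table and the per-sample files held the same values. Of the 39017 identifiers 37693 were in GENCODE M21, with 99.83% of the counts, and members and 224 list and marker genes all matched, 3 of them through RefSeq synonyms. Replicates are separate animals except where libraries share an animal number, and fits took libraries as independent.

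FPI was compared with sham within a cell type in edgeR 4.0.16 (R 4.3.3), with filterByExpr at its defaults, TMM normalization and glmQLFTest. A single fit of the 20 libraries served the comparison of sham groups and the difference in effect. P-values were adjusted over all genes tested (Benjamini-Hochberg). Members below the filter were compared by an exact permutation test of mean CPM. Fits were tested on simulated data. DESeq2 1.42.0 and other settings were alternatives. Python 3.11.15 and scipy 1.17.1 served the tables. Coding sequences came from GENCODE M21 transcripts and the promoter from RefSeq. The members and gene lists were chosen with earlier results of these data known. Named list genes are those called with FPI, up to 4 a list, or the 1 tested gene of smallest p. The values of 1 such gene are not reported here. Replicate numbers were checked for pairing by correlating deviations from group means (-0.066 to 0.092 in microglia, -0.0093 to 0.45 in astrocytes) and were not taken as pairs. A term for astrocyte replicates 4 and 5, values within sets of replicates, and leaving out the microglia libraries of animals with both cell types were chosen after seeing the data.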

Additional observations from a re-analysis of the deposited data

Results flagged for a closer look

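The effect of FPI on Fabp5 differed between the cell types by 3.00 on the log2 scale, microglia minus astrocytes (edgeR, adjusted p = 0.021). Libraries were also compared within each group of 5 by the gap of the highest or lowest to its neighbour, over 40 groups that varied, and 5 stood apart, where chance alone gives about 1 in 20 groups. They were Cd36 in FPI MG 1 (12.3 CPM, next 3.74) and in Sham Astro 5 (0.885 CPM, next 0.205), Fabp3 in Sham MG 4 (0.114 CPM, the other libraries at 0) and in Sham Astro 1 (1.33 CPM, next 0.313), and Fabp7 in Sham MG 4 (1.25 CPM, the other libraries at 0). Sham MG 4 is thus the one sham microglia library with reads of Fabp3 and Fabp7, 1 and 11 reads. A group with reads in a single library stands apart whatever the count, so the rate of 1 in 20 does not apply to it. Nothing is read from the number that stood apart.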

How the results depend on the processing

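Lpl and Fabp5 were called in microglia in every fit over both name series in which they were tested. With at least 10 counts in every library Fabp5, Fabp7, Cd36 and Ch25h were not tested. The number of members called in microglia ran from 2 to 5 when 1 library was left out. It was 5 without Sham MG 4, where Fabp3 and Fabp7 were called too. Fabp3 passed the filter on low counts in 6 of these fits, without any single Sham MG library or FPI MG 4, and was called in all 6. Fabp7 was called only without Sham MG 4. In astrocytes it was 0 in every setting, with 0 to 53 genes called in all. Between the sham cell types it was 4 in the 10 sham libraries alone, where Cd36, Fabp3 and Ch25h were not tested, and 1 with at least 10 counts in every library, where Plin2, Acsl1, Acsl6 and Pnpla2 were the members tested, and 6 to 7 when 1 library was left out. For the difference in effect it was 0 with at least 10 counts in every library, where Fabp5 was not tested, and 0 without the microglia libraries of animals with both cell types, where the cause was not tested. It was 1 with each library left out.

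With the replicate number as a replicate block, 3 members were called in microglia (Lpl, Fabp5 and Plin2, adjusted p 0.0001, 0.0047 and 0.087) and 0 in astrocytes, with 255 and 11 genes called in all. The numbers do not mark a shared animal. Genes called in microglia ran from 121 (all 20 libraries) to 423 (without FPI MG 3), those for the difference from 1 to 191.

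Cd36, Fabp3 and Ch25h had 6 to 35 reads per astrocyte group. Directions turned for members that were not called in the fits as designed. Pnpla2 in microglia was -0.0039 with no filter, -0.00026 with the replicate block, -0.012 in the fit of all 20 libraries, and -0.072 to 0.11 with 1 library left out. Plin2 between sham cell types was -0.048 in DESeq2 and with RLE factors, -0.10 with at least 10 counts, -0.079 without the microglia libraries of animals with both, and -0.13 to 0.20 with 1 left out. Acsl1 there was 0.62 without the astrocyte libraries of such animals and -0.30 to 0.16 with 1 left out. The Ch25h difference in effect was -0.0048 in DESeq2, -0.76 and -0.074 without the astrocyte or microglia libraries of such animals, and -1.12 to 0.66 with 1 left out.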
